A study of Mus musculus with 12 samples.

Results

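The response of WT lung ILC2s to IL-33 was read from 6 of the 12 RNA-seq libraries of the series. These were the 3 libraries of WT mice given IL-33 and the 3 of WT mice given PBS, chosen by genotype and treatment in the sample labels. All were on the C57BL/6 background in the labels, C57BL/6J in the methods, and received IL-33 or PBS intranasally for 3 days, and the labels give the IL-33 dose as 50 ng, lower than the dose in the methods of the study. The other 6 libraries, of Sema6d−/− ILC2s under the same treatments, lent degrees of freedom to the test. The direction of the WT calls was also read in them, which is not independent of the test. Values are FPKM, fragments scaled to the length of the transcript and to the mapped total of the library, listed for 24346 gene symbols, of which 11058 averaged 0.5 FPKM or more over the 6 WT libraries and were tested. Read totals are not part of these values, so the depth of each library is unknown. The highest FPKM of each PBS library belonged to a Mir gene, a kind so short that its FPKM is unreliable, and that of each IL-33 library to *Tmsb4x*. Sources differ on whether the library kit kept the strand of RNA, so a named gene whose exons overlap a gene on the other strand is said to do so and is uncertain. Replicate numbers are all that tells libraries of a group apart in the labels, and p-values measure the spread between these samples.

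ILC2s are tissue-resident lymphocytes without antigen receptors that answer alarmins released by damaged epithelium and stroma. IL-33 binds the receptor chain ST2 paired with the IL-1 receptor accessory protein, and MYD88, IRAK kinases and TRAF6 pass the signal to NF-kB and MAP kinases. In the lung these cells are known for IL-5, IL-13 and amphiregulin, which act on eosinophils, mucus production and epithelial repair.

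The 14 markers of ILC2s summed to 7714, 7443 and 7720.4 FPKM in the PBS libraries and to 7254, 7919 and 8742 in the IL-33 libraries, with *Id2*, a repressor that ILCs depend on, the most abundant. The lineage factor *Gata3* was at 589.7, 466 and 424 FPKM under PBS and 295, 386 and 347 under IL-33. *Il1rl1*, which encodes ST2, was at 186, 117 and 148 FPKM under PBS and 165, 205 and 209 under IL-33. Neither passed the test (limma, adjusted p = 0.212 and 0.396), though *Gata3* was lower in each IL-33 library than in any PBS library, and *Il1rl1* overlapped. *Ptgdr2*, the prostaglandin D2 receptor often used as an ILC2 marker, was listed at 0 in the 6 libraries. *Il13*, *Klrg1* and *Il2ra*, also among the markers, are described below.

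The groups differed in how many genes were listed at 0. Of the 11058 genes tested, 2017, 2263 and 1171 were listed at 0 in the PBS libraries and 462, 425 and 465 in the IL-33 libraries. The SD between the 3 libraries of a group, as the median over genes in log2 units, was 0.69 under PBS and 0.29 under IL-33. Every PBS library thus listed more genes at 0 than any IL-33 library, and low genes that appear under IL-33 rest on these zeros. The part of this difference in the results was not tested, and no fold is given against a group at 0.

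IL-33 changed 508 of the 11058 genes at an adjusted p under 0.05 (limma on log2(FPKM + 1), Benjamini-Hochberg). Of these, 320 rose (2.89% of the genes tested) and 188 fell (1.7%). Counts in the gene lists below are read beside these shares. The 508 genes had IL-33 and PBS values that did not overlap, as had 2801 genes in all (25.3%), and 2046 genes had an unadjusted p under 0.05. An exact permutation test of a single gene cannot go below p = 0.10 with 3 libraries against 3, so single genes are described by their values and overlap. Changes are read against the median log2 fold change over all genes, which was 0.16 with the FPKM as deposited and 0.01 when libraries were quantile normalized. The risen and fallen genes differed in abundance. Genes that rose had a median of 10.5 FPKM over the 6 libraries and those that fell a median of 87.9, against 9.998 for all genes tested. Of the risen genes, 96 were listed at 0 in the 3 PBS libraries and 133 were above 0 in each of them. Of the fallen genes, 170 were above 0 in each IL-33 library. When genes had to be above 0 in at least 2 libraries of each group, 148 rose and 161 fell (47.9% higher, against 62.99% among the 508). Among the 1994 abundant genes, those averaging 50 FPKM or more, 104 rose and 122 fell. Of 134 called genes named in this text, 41 lost the call without a variance trend, 32 in the 6 WT libraries alone, 25 with array weights for each treatment and 20 with array weights for each library. Losses were larger with treatment weights in the 6 WT libraries (57) and without WT IL-33 replicate 1 (52), 2 (50) or 3 (56). Counts fell by more than 1.5 times when an IL-33 library was left out: 140 rose and 89 fell without WT IL-33 replicate 1, 156 and 103 without replicate 2, and 145 and 102 without replicate 3.

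**Figure D1:**
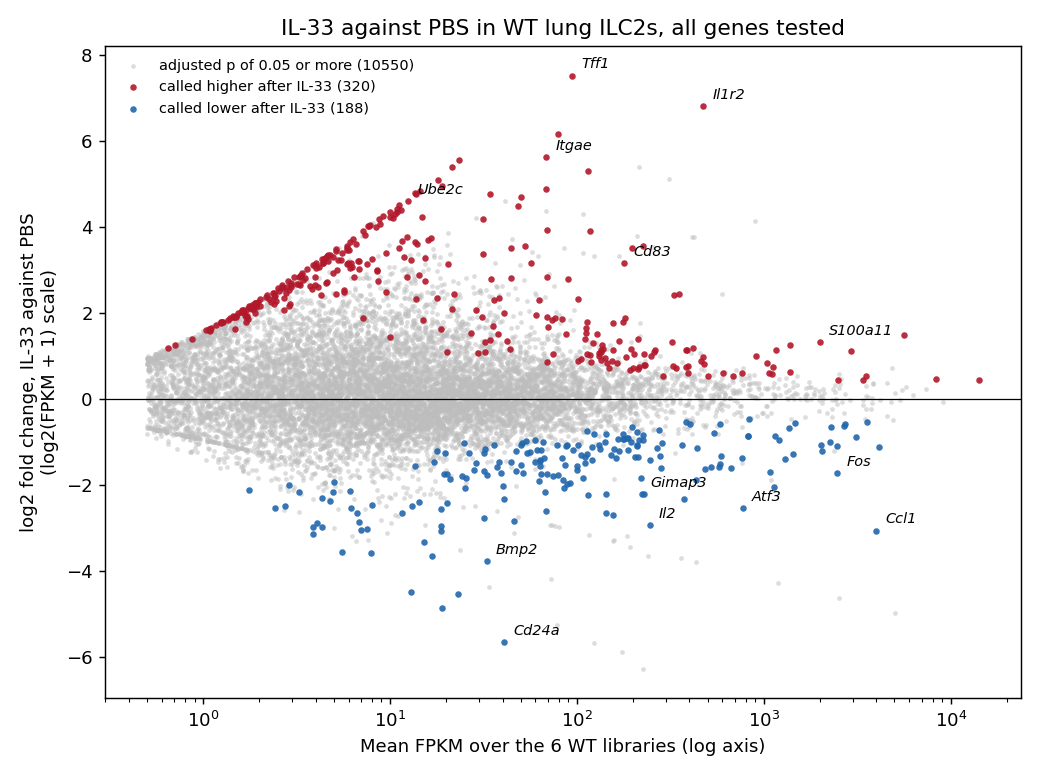
Each point is 1 of the 11058 genes tested, with its mean FPKM over the 6 WT libraries on a log axis and its log2 fold change after IL-33 on the log2(FPKM + 1) scale. The 320 genes that rose (red) reach down to low means along the upper edge, where PBS values are listed at 0, and the 188 that fell (blue) lie mostly at higher means.

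The largest rise on the log2(FPKM + 1) scale was in *Tff1* (chromosome 17, 31161395 to 31165277, GRCm38), which encodes a trefoil peptide secreted onto mucosal surfaces. It was listed at 0 FPKM in each PBS library and at 164, 144 and 257 FPKM in the IL-33 libraries (adjusted p = 1.46e-06, limma). Its rank depends on the pseudocount, because the PBS group is listed at 0: with a pseudocount of 5 the log2 fold change of *Il1r2*, a receptor gene described below, was 5.92 and that of *Tff1* 5.23. *Penk* (chromosome 4, 4133531 to 4138819), the precursor of enkephalin opioid peptides, was also listed at 0 in each PBS library and was at 16.6, 10.98 and 36.1 FPKM under IL-33 (adjusted p = 9.65e-04). Every IL-33 library listed both above 0 and every PBS library listed both at 0, which does not show that PBS libraries lacked them. *Tff1* and *Penk* were the members that rose among 19 tested genes of a list of effector cytokines and secreted peptides, in which 4 fell. With array weights for each library or each treatment 4 rose. Among the 14 members above 0 in at least 2 libraries of each group 0 rose.

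The 4 cytokines that fell were abundant under PBS. *Csf2*, which encodes GM-CSF, was at 2819, 3466 and 2341 FPKM under PBS and 1041, 1416 and 1267 under IL-33 (log2 fold change −1.20, standard error 0.16, adjusted p = 0.00126). *Il2*, a growth factor of lymphocytes, was at 318, 633 and 354 FPKM under PBS and 53.9, 66.5 and 42.6 under IL-33 (log2 fold change −2.93, standard error 0.27, adjusted p = 1.44e-04). *Lif*, a cytokine of the IL-6 family, was at 136, 241 and 194 FPKM under PBS and 31.8, 46.1 and 39.4 under IL-33 (log2 fold change −2.23, standard error 0.24, adjusted p = 3.81e-04). In all of these the lowest PBS library stood above the highest IL-33 library. *Tnf*, the inflammatory cytokine, was at 90.4, 194 and 169 FPKM under PBS and 49.96, 45.98 and 49.5 under IL-33 (log2 fold change −1.55, standard error 0.29, adjusted p = 0.0111), a call lost with a library left out (adjusted p = 0.0502 without WT IL-33 replicate 2).

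The cytokines for which ILC2s are best known did not pass the test. *Il5*, which supports eosinophils, was at 832, 531 and 859 FPKM under PBS and 384, 561 and 601 under IL-33 (log2 fold change −0.52, standard error 0.26, adjusted p = 0.327). *Il13*, a driver of mucus production, was at 5.80, 1.10 and 7.60 FPKM under PBS and 18.4, 37.2 and 37.3 under IL-33 (log2 fold change 2.62, standard error 0.89, adjusted p = 0.134). *Areg*, the epidermal growth factor family member amphiregulin, was at 1796, 1987 and 1875 FPKM under PBS and 1336, 1438 and 1485 under IL-33 (log2 fold change −0.41, standard error 0.17, adjusted p = 0.212). *Il5* overlapped between the groups, each IL-33 value of *Il13* lay above each PBS value, and each IL-33 value of *Areg* lay below. *Il6*, an inflammatory cytokine, was listed at 0, 16.1 and 11.1 FPKM under PBS and 83.8, 175 and 122 under IL-33, without overlap and short of the threshold (adjusted p = 0.0739), but was called with a pseudocount of 5 (adjusted p = 0.0171), with library weights (0.0411) and with treatment weights over all libraries (0.0294) or the 6 of WT (0.0342). *Il4*, a type 2 cytokine, was at 18.4, 90.3 and 10.4 FPKM under PBS and 61.3, 75.5 and 66.9 under IL-33, with overlap (adjusted p = 0.341; called without WT PBS replicate 2, adjusted p = 0.0459). A transcript level in sorted cells gives neither secretion nor cell number: fewer cells of a type and less RNA per cell cannot be told apart.

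Chemokine transcripts also differed. *Ccl1* (chromosome 11, 82176657 to 82305690), the ligand of CCR8, was at 6073, 8658 and 6654 FPKM under PBS and 620.0, 972 and 1011 under IL-33 (log2 fold change −3.05, standard error 0.19, adjusted p = 1.35e-05), the smallest adjusted p among the genes that fell. The neutrophil attractant *Cxcl1* was at 573, 709 and 576 FPKM under PBS and 113, 97.8 and 171 under IL-33 (log2 fold change −2.31, standard error 0.22, adjusted p = 1.96e-04). *Cxcl2*, which binds the same receptor, was at 1617, 1619 and 1686 FPKM under PBS and 421, 539 and 566 under IL-33 (log2 fold change −1.70, standard error 0.23, adjusted p = 0.00141). All 3 transcripts were lower in every IL-33 library than in any PBS library and remained well above 0. *Ccl24*, an eosinophil attractant, was listed at 0, 0.127 and 0 FPKM under PBS and 14.4, 4.93 and 15.8 under IL-33 (adjusted p = 0.00183). Of 11 chemokines tested, 1 rose and 3 fell, though 2 rose without WT PBS replicate 2.

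Receptors for chemoattractants gave 1 rise and 2 falls among 18 tested, though 0 rose among genes above 0 in at least 2 libraries of each group or in the 6 WT libraries with treatment weights, and 1 fell without a variance trend, with treatment weights, in the 6 WT libraries alone or in the 6 WT libraries with treatment weights. *Ccr8*, the receptor of CCL1, was at 3480.1, 3997 and 4634 FPKM under PBS and 1674, 2446 and 2501 under IL-33 (log2 fold change −0.88, standard error 0.16, adjusted p = 0.00927). *Ccr2*, a receptor that guides exit from bone marrow, was at 305, 378 and 343 FPKM under PBS and 92.1, 109 and 85.3 under IL-33 (log2 fold change −1.83, standard error 0.19, adjusted p = 3.32e-04). The fractalkine receptor *Cx3cr1* was listed at 0, 0 and 0.739 FPKM under PBS and 7.01, 6.30 and 9.82 under IL-33 (adjusted p = 0.00382). Both fallen receptors stayed far above *Cx3cr1* in each IL-33 library. Of 8 neuropeptide and adrenergic receptors, 1 fell: *Nmur1*, the neuromedin U receptor by which nerves activate ILC2s, was at 149.7, 86.3 and 111 FPKM under PBS and 44.7, 26.8 and 27.3 under IL-33 (log2 fold change −1.78, standard error 0.30, adjusted p = 0.00639). In the list of *Nmur1*, 1 rose without WT PBS replicate 3, and 2 fell without WT PBS replicate 2. The counts of both receptor lists stand beside 2.89% risen and 1.7% fallen of all genes tested, and their single calls are no result about the lists. The calls in *Ccr8* and *Nmur1* held with any of the 6 libraries left out. That of *Ccr8* ended without a variance trend (adjusted p = 0.104), with treatment weights (0.0607) and in the 6 WT libraries alone (0.0552), and both ended in these with treatment weights.

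Among 20 cytokine receptor genes tested, 3 rose and 2 fell, though 0 rose without WT IL-33 replicate 3 and 1 without WT IL-33 replicate 2, and 1 fell without WT PBS replicate 1 or 3 or without WT IL-33 replicate 1, 2 or 3. *Il1r2* (chromosome 1, 40074079 to 40125231), a decoy receptor that binds IL-1 without signalling, was at 0.146, 15.5 and 27.2 FPKM under PBS and 647, 928 and 1229 under IL-33 (log2 fold change 6.80, standard error 1.28, adjusted p = 0.0109). *Il17rb*, the IL-25 receptor chain, whose exons overlap *Actr8* on the other strand, was at 122, 118 and 85.2 FPKM under PBS and 168, 240.2 and 196 under IL-33 (log2 fold change 0.89, standard error 0.20, adjusted p = 0.0237). *Il18rap*, a chain of the IL-18 receptor, was at 12.2, 4.32 and 18.99 FPKM under PBS and 41.99, 44.7 and 51.8 under IL-33 (log2 fold change 2.07, standard error 0.44, adjusted p = 0.0198). The PBS values of *Il1r2* spread widely, yet the highest stood far under the lowest IL-33 value. These calls were each lost without some library: *Il1r2* (adjusted p = 0.0547 without WT IL-33 replicate 3), *Il17rb* (adjusted p = 0.106 without WT IL-33 replicate 2) and *Il18rap* (adjusted p = 0.0891 without WT IL-33 replicate 3). *Il2ra*, the high-affinity IL-2 receptor chain CD25, was at 96.2, 122 and 112 FPKM under PBS and 18.98, 27.7 and 25.6 under IL-33 (log2 fold change −2.16, standard error 0.25, adjusted p = 6.19e-04). *Il10ra*, the IL-10 receptor chain, was at 235, 134 and 171 FPKM under PBS and 76.9, 72.6 and 103 under IL-33 (log2 fold change −1.07, standard error 0.26, adjusted p = 0.0395). The call of *Il10ra* was lost without any of the IL-33 libraries or without WT PBS replicate 1 or 3 (adjusted p = 0.144 without WT IL-33 replicate 2). *Il7r*, which binds IL-7 and is a chain of the TSLP receptor, was at 279.7, 356 and 309 FPKM under PBS and 282, 372 and 312 under IL-33, with overlap (adjusted p = 0.941). *Il2* and *Il2ra* thus both fell, and *Il7r* and *Il1rl1* overlapped between the groups. The counts of the cytokine receptor list stand beside 2.89% risen and 1.7% fallen of all genes tested.

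Beside 2.89% risen and 1.7% fallen of all genes tested, the count in the signalling chain of the IL-33 receptor is no result about it. The chain gave no more than 1 call among 22 genes tested, though 0 fell without a variance trend, with treatment weights, in the 6 WT libraries alone, in the 6 WT libraries with treatment weights or without WT IL-33 replicate 1, 2 or 3. It was *Ikbkb*, a kinase that releases NF-kB, at 65.7, 71.8 and 75.7 FPKM under PBS and 39.01, 36.02 and 32.1 under IL-33 (log2 fold change −0.98, standard error 0.22, adjusted p = 0.0246), a call lost without WT IL-33 replicate 3 (adjusted p = 0.0978). The adaptor *Myd88*, which overlaps *Acaa1a* on the other strand, was listed at 0.390, 0 and 56.4 FPKM under PBS and 35.3, 23.4 and 23.7 under IL-33, with overlap (adjusted p = 0.385). Of 18 NF-kB subunits and feedback inhibitors tested, 4 fell and 0 rose, and those that fell are inhibitors or modifiers of the pathway, though 2 rose without WT PBS replicate 3, and 1 fell without a variance trend. *Nfkbia*, which encodes the inhibitor IkBa, was at 7244, 5218 and 4607 FPKM under PBS and 2704, 2604 and 2412 under IL-33 (log2 fold change −1.12, standard error 0.22, adjusted p = 0.0131). *Nfkbiz*, a nuclear IkB protein, was at 1153, 748 and 714 FPKM under PBS and 254, 313 and 288 under IL-33 (log2 fold change −1.58, standard error 0.17, adjusted p = 4.71e-04). *Tnfaip3*, the ubiquitin-editing inhibitor A20, was at 1672, 1378 and 1395 FPKM under PBS and 830.2, 860.4 and 767 under IL-33 (log2 fold change −0.85, standard error 0.14, adjusted p = 0.00629). In each of these the PBS libraries were all above the IL-33 libraries. *Nfkbid*, another nuclear IkB gene, was at 1233, 977 and 977 FPKM under PBS and 552, 706 and 498 under IL-33 (log2 fold change −0.87, standard error 0.15, adjusted p = 0.00804), again with every IL-33 library lower. The call of *Nfkbia* was lost without any of the IL-33 libraries or without WT PBS replicate 1 (adjusted p = 0.0636 without WT IL-33 replicate 3). Without a variance trend it ended too (adjusted p = 0.0826), as did those of *Tnfaip3* (0.0974) and *Nfkbid* (0.0965), the latter also with library weights (0.0721) or treatment weights (0.0588). The subunit *Nfkb1* was at 145, 115 and 94.3 FPKM under PBS and 104, 134 and 138 under IL-33, with overlap (adjusted p = 0.863).

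Immediate early genes, which cells transcribe within minutes of a stimulus, had the lowest median of the 33 gene lists other than cell type markers. All 22 members were tested, 16 fell, 0 rose and 22 had a negative log2 fold change, with a median of −1.20 against 0.16 for all genes. *Fos*, a subunit of the AP-1 transcription factor, was at 4169, 3204 and 3997 FPKM under PBS and 1287, 1239 and 934 under IL-33 (log2 fold change −1.72, standard error 0.15, adjusted p = 8.00e-05). *Jun*, its partner, was at 769, 657 and 927 FPKM under PBS and 276, 253 and 257 under IL-33 (log2 fold change −1.56, standard error 0.17, adjusted p = 4.89e-04). *Atf3*, a stress-induced factor of the same superfamily, was at 1759, 1205 and 990.1 FPKM under PBS and 177, 228 and 269 under IL-33 (log2 fold change −2.53, standard error 0.26, adjusted p = 2.98e-04). The orders were the same for all members called: every PBS library stood above every IL-33 library. *Ier2*, an immediate early nuclear protein, was at 1274, 1009 and 1012 FPKM under PBS and 445, 427 and 398 under IL-33 (log2 fold change −1.37, standard error 0.12, adjusted p = 8.00e-05). *Nr4a1*, a nuclear receptor induced by antigen or cytokine signals, was at 2367, 2023 and 1685 FPKM under PBS and 842, 871 and 787 under IL-33 (log2 fold change −1.27, standard error 0.16, adjusted p = 0.00126). *Egr1*, a zinc finger factor downstream of ERK, was at 216, 239 and 243 FPKM under PBS and 92.1, 111 and 69.2 under IL-33 (log2 fold change −1.37, standard error 0.22, adjusted p = 0.00427). Each of these transcripts was still at 69.2 FPKM or more after IL-33, so the difference is between high and lower levels. *Jund*, an AP-1 subunit, was at 352, 261 and 299.5 FPKM under PBS and 121, 119.6 and 117 under IL-33 (log2 fold change −1.33, standard error 0.16, adjusted p = 9.65e-04). *Nr4a2*, a paralog of *Nr4a1*, was at 156, 198 and 148 FPKM under PBS and 27.7, 58.6 and 58.7 under IL-33 (log2 fold change −1.84, standard error 0.31, adjusted p = 0.00568). *Nr4a3*, the other paralog, was at 324, 394 and 389 FPKM under PBS and 128, 193 and 186 under IL-33 (log2 fold change −1.14, standard error 0.21, adjusted p = 0.0101). The groups were apart in all of these. The calls of *Nr4a2* and *Nr4a3* ended with library weights (adjusted p = 0.0597 and 0.104) and with treatment weights (0.0591 and 0.0871). That of *Nr4a3* also ended without a variance trend (0.0566). Some calls were lost with a library left out. *Egr3*, a paralog of *Egr1*, was at 65.8, 49.7 and 50.5 FPKM under PBS and 4.33, 12.7 and 6.84 under IL-33 (adjusted p = 0.0109; adjusted p = 0.0547 without WT IL-33 replicate 1). *Fosb*, a paralog of *Fos*, was at 144, 93.9 and 123 FPKM under PBS and 33.5, 52.7 and 51.8 under IL-33 (adjusted p = 0.0252; adjusted p = 0.111 without WT IL-33 replicate 1). *Junb*, an AP-1 subunit whose exons overlap *Prdx2* on the other strand, was at 3219.7, 3197 and 3374 FPKM under PBS and 2359, 2232 and 1804 under IL-33 (adjusted p = 0.0198; adjusted p = 0.0953 without WT IL-33 replicate 3). These were lower in each IL-33 library. *Ier5*, an immediate early gene of heat shock control, was at 160.4, 163 and 151 FPKM under PBS and 80.96, 101 and 87.7 under IL-33 (adjusted p = 0.0324; adjusted p = 0.122 without WT IL-33 replicate 1). *Btg2*, an antiproliferative gene, was at 353, 391 and 291 FPKM under PBS and 213, 225 and 186 under IL-33 (adjusted p = 0.0246; adjusted p = 0.111 without WT IL-33 replicate 3). Over the 20 alternatives between 8 and 16 members were called lower and none was called higher.

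Some genes that restrain these signals fell as well. Of 14 MAP kinase phosphatases and mRNA decay factors tested, 6 fell and 0 rose, with a median log2 fold change of −0.82. Without a variance trend or without WT IL-33 replicate 1, 3 fell. *Zfp36*, which encodes the decay factor tristetraprolin, was at 2103, 1670.1 and 1669.5 FPKM under PBS and 529, 442 and 361 under IL-33 (log2 fold change −2.04, standard error 0.22, adjusted p = 4.13e-04). *Zfp36l1*, its paralog, was at 451, 359 and 455 FPKM under PBS and 103, 154 and 163 under IL-33 (log2 fold change −1.61, standard error 0.20, adjusted p = 9.65e-04). *Dusp1*, a phosphatase of p38 and JNK that overlaps *Ergic1* on the other strand, was at 3809.6, 2651 and 3614 FPKM under PBS and 1682, 1631 and 1414 under IL-33 (log2 fold change −1.08, standard error 0.17, adjusted p = 0.00354). Again no PBS value reached down to an IL-33 value. The call of *Dusp1* ended without a variance trend (adjusted p = 0.0554). *Dusp5*, a phosphatase of ERK, was at 311, 186 and 209 FPKM under PBS and 91.3, 95.97 and 113 under IL-33 (log2 fold change −1.20, standard error 0.22, adjusted p = 0.0102; adjusted p = 0.0516 without WT IL-33 replicate 1). *Dusp6*, another, was at 179, 149 and 150.4 FPKM under PBS and 58.3, 54.5 and 87.4 under IL-33 (log2 fold change −1.27, standard error 0.27, adjusted p = 0.0209; adjusted p = 0.0918 without WT IL-33 replicate 1). *Zfp36l2*, a further decay factor, was at 225, 193 and 232 FPKM under PBS and 127, 125 and 92.8 under IL-33 (log2 fold change −0.92, standard error 0.23, adjusted p = 0.0424; adjusted p = 0.170 without WT IL-33 replicate 3). All 3 were lower in each IL-33 library, with calls that a left-out library ends. *Spry1*, an inhibitor of receptor tyrosine kinase signals, was at 249, 238 and 209 FPKM under PBS and 29.4, 55.3 and 73.9 under IL-33 (log2 fold change −2.20, standard error 0.29, adjusted p = 0.00131). *Cebpb*, a transcription factor of inflammatory genes that overlaps *Tmem189* on the other strand, was at 476, 311 and 343 FPKM under PBS and 93.8, 86.2 and 63.3 under IL-33 (log2 fold change −2.20, standard error 0.25, adjusted p = 6.19e-04).

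Factors that hold lymphocytes at rest also gave calls. Among 17 quiescence factors, 4 fell and 1 rose, though 0 rose without WT IL-33 replicate 2, and 1 fell without WT PBS replicate 2 or without WT IL-33 replicate 1 or 3 and 2 without WT IL-33 replicate 2. Without a variance trend, or in the 6 WT libraries with treatment weights, 0 rose and 1 fell. In the 6 WT libraries alone 1 fell, and with library weights or treatment weights 2 fell. *Klf3*, a Krüppel-like repressor, was at 93.5, 94.8 and 109.8 FPKM under PBS and 25.6, 25.7 and 25.6 under IL-33 (log2 fold change −1.91, standard error 0.20, adjusted p = 2.98e-04). *Klf4*, of the same family, was at 83.96, 103 and 80.8 FPKM under PBS and 28.6, 47.2 and 43.2 under IL-33 (log2 fold change −1.17, standard error 0.26, adjusted p = 0.0233; adjusted p = 0.0972 without WT IL-33 replicate 1). *Btg1*, a paralog of the fallen *Btg2*, was at 959, 999 and 939 FPKM under PBS and 635, 715 and 758 under IL-33 (log2 fold change −0.46, standard error 0.11, adjusted p = 0.0353; adjusted p = 0.143 without WT IL-33 replicate 1). The IL-33 values of *Klf3* were nearly equal to each other, and those of *Btg1* lay not far under the PBS values. *Ypel3*, a growth-suppressing gene, rose and was at 151, 154 and 139.9 FPKM under PBS and 297, 359 and 269 under IL-33 (log2 fold change 1.04, standard error 0.20, adjusted p = 0.0115; adjusted p = 0.0609 without WT IL-33 replicate 2).

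Surface receptors of activation moved in both directions, with 6 risen and 3 fallen among 22 tested, though 3 rose without WT IL-33 replicate 1, 2 or 3. *Itgae* (chromosome 11, 73090583 to 73147446), the CD103 integrin chain that binds E-cadherin on epithelium, was listed at 0, 3.45 and 3.53 FPKM under PBS and 164, 109 and 131 under IL-33 (log2 fold change 5.62, standard error 0.71, adjusted p = 0.00111). *Ctla4* (chromosome 1, 60887000 to 60915832), an inhibitory receptor for B7 ligands, was listed at 9.11, 0 and 0 FPKM under PBS and 136, 132 and 200.4 under IL-33 (log2 fold change 6.16, standard error 1.11, adjusted p = 0.00885). *Havcr2*, which encodes the checkpoint receptor TIM-3, was listed at 0 in each PBS library and at 2.55, 6.58 and 5.25 FPKM under IL-33 (adjusted p = 0.00821). These calls held with any of the 6 libraries left out, although that of *Havcr2* ended with treatment weights (adjusted p = 0.0529), and each IL-33 library lay above each PBS library. *Klrg1*, a marker of mature ILC2s, was at 349, 141 and 309 FPKM under PBS and 563, 541 and 595 under IL-33 (log2 fold change 1.19, standard error 0.27, adjusted p = 0.0304). *Tnfrsf4*, the costimulatory receptor OX40, was listed at 14.7, 0 and 28.1 FPKM under PBS and 73.6, 116 and 184 under IL-33 (log2 fold change 3.93, standard error 0.97, adjusted p = 0.0424). *Tigit*, an inhibitory receptor, was listed at 8.54, 0.182 and 0 FPKM under PBS and 20.01, 28.4 and 42.6 under IL-33 (log2 fold change 3.74, standard error 0.83, adjusted p = 0.0247). These calls were lost with libraries left out, as for *Klrg1* (adjusted p = 0.117 without WT IL-33 replicate 3), *Tnfrsf4* (adjusted p = 0.168 without WT IL-33 replicate 3) and *Tigit* (adjusted p = 0.117 without WT IL-33 replicate 3). Among the receptors that fell, *Tnfrsf18*, the costimulatory receptor GITR, was at 2245, 1425 and 1977 FPKM under PBS and 609, 719.6 and 804 under IL-33 (log2 fold change −1.39, standard error 0.20, adjusted p = 0.00216). *Cd69*, an early activation marker that retains cells in tissue, was at 2973, 3318 and 2682 FPKM under PBS and 1454, 1461 and 1603 under IL-33 (log2 fold change −0.99, standard error 0.11, adjusted p = 4.89e-04). *Cd200r1*, an inhibitory receptor for CD200, was at 229, 232 and 187 FPKM under PBS and 81.5, 107 and 75.1 under IL-33 (log2 fold change −1.30, standard error 0.19, adjusted p = 0.00276). The 3 fallen receptors were abundant in all PBS libraries, whereas *Itgae*, *Ctla4* and *Havcr2* were near or at 0 there. *Pdcd1*, which encodes PD-1, was at 472, 175 and 261 FPKM under PBS and 367, 415 and 458 under IL-33, with overlap (adjusted p = 0.344; called without WT PBS replicate 1, adjusted p = 0.0437).

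**Figure D2:**
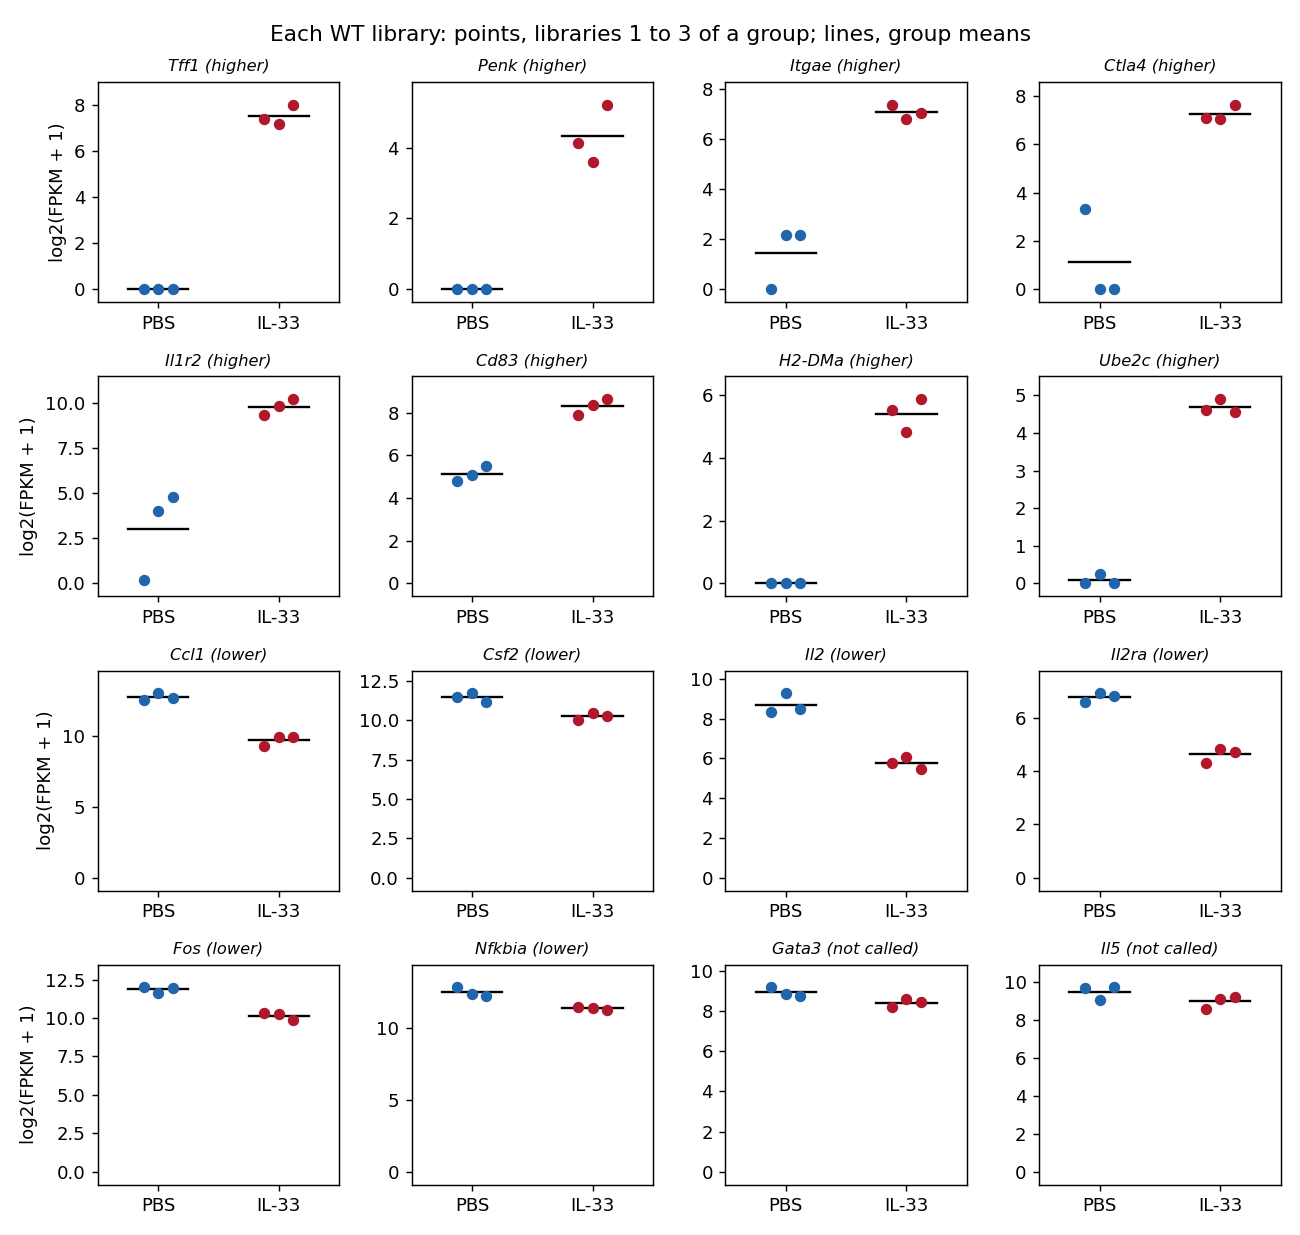
Each panel shows 1 gene, with log2(FPKM + 1) of each of the 3 PBS (blue) and 3 IL-33 (red) libraries of WT ILC2s as points and the group mean as a line. *Tff1*, *Penk* and *H2-DMa* are listed at 0 in each PBS library, *Ccl1*, *Csf2*, *Il2*, *Il2ra*, *Fos* and *Nfkbia* are lower in each IL-33 library, and *Gata3* and *Il5* were not called.

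Some ligands of the TNF superfamily and some genes of antigen presentation rose. Of 13 interleukin 1 family and TNF superfamily ligands tested, 3 rose and 1 fell, the latter *Tnf*, though 1 rose without WT IL-33 replicate 3, and 0 fell without WT IL-33 replicate 2. Among the 8 above 0 in at least 2 libraries of each group 0 rose, since *Cd70* and *Tnfsf4* were not tested there and *Tnfsf8* missed the threshold (adjusted p = 0.0537). *Cd70*, the ligand of CD27, was listed at 0 FPKM in each PBS library and at 9.84, 62.04 and 41.6 under IL-33 (adjusted p = 0.00132). *Tnfsf4*, which encodes OX40 ligand, was listed at 0 in each PBS library and at 16.9, 43.6 and 48.3 under IL-33 (adjusted p = 0.0131), a call lost without WT IL-33 replicate 3 (adjusted p = 0.0666). *Tnfsf8*, the CD30 ligand gene, was listed at 0.409, 8.92 and 17.6 FPKM under PBS and 37.6, 89.98 and 110.2 under IL-33 (log2 fold change 3.52, standard error 0.89, adjusted p = 0.0459; adjusted p = 0.177 without WT IL-33 replicate 3). In all 3 ligands the IL-33 libraries were above the PBS libraries. Of 10 MHC class II and B7 genes tested, 5 rose and 0 fell, with a median log2 fold change of 3.08 (2.002 with a pseudocount of 5), though 1 rose without WT IL-33 replicate 3, 2 without WT IL-33 replicate 1 or 2 and 3 without WT PBS replicate 1 or 2. *H2-DMa* (chromosome 17, 34119541 to 34139101), which loads peptide onto class II molecules and overlaps *Brd2* on the other strand, was listed at 0 in each PBS library and at 44.4, 27.3 and 57.6 FPKM under IL-33 (adjusted p = 0.00196). *Cd74*, the invariant chain, was at 8.34, 55.2 and 66.7 FPKM under PBS and 285, 337 and 608 under IL-33 (log2 fold change 3.56, standard error 0.76, adjusted p = 0.0209). *H2-Aa*, a class II alpha chain, was listed at 0.384, 0 and 33.8 FPKM under PBS and 67.6, 80.5 and 225 under IL-33 (log2 fold change 4.89, standard error 1.15, adjusted p = 0.0317). PBS libraries were uneven in these genes, with WT PBS replicate 1 the lowest in *Cd74*. The class II beta chain *H2-Eb1* was listed at 2.38, 0 and 8.30 FPKM under PBS and 44.1, 46.4 and 88.3 under IL-33 (log2 fold change 4.19, standard error 0.99, adjusted p = 0.0339). *H2-DMb1*, the partner of *H2-DMa*, was listed at 0, 0.128 and 0.128 FPKM under PBS and 3.92, 6.71 and 9.54 under IL-33 (log2 fold change 2.77, standard error 0.53, adjusted p = 0.0111). Calls were lost for *Cd74* (adjusted p = 0.102 without WT IL-33 replicate 3), *H2-Aa* (adjusted p = 0.143 without WT IL-33 replicate 3), *H2-Eb1* (adjusted p = 0.143 without WT IL-33 replicate 3) and *H2-DMb1* (adjusted p = 0.0571 without WT IL-33 replicate 3). *H2-Ab1*, another class II beta chain, was at 1.01, 37.97 and 61.8 FPKM under PBS and 164, 152 and 229 under IL-33 without passing the threshold (adjusted p = 0.0734), and was called in 5 of the 20 alternatives, such as treatment weights (adjusted p = 0.0257). *Cd83* (chromosome 13, 43784775 to 43803132), a surface glycoprotein of activated lymphocytes and dendritic cells that stabilises class II molecules, was at 27.3, 33.000 and 45.1 FPKM under PBS and 239, 325 and 403 under IL-33 (log2 fold change 3.16, standard error 0.26, adjusted p = 7.85e-05). Its lowest IL-33 value was several times its highest PBS value, and the call held with any library left out.

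Dendritic and B cells carry class II genes at high level and could be captured beside ILC2s, although the sort in the methods left out cells with CD11c and other lineage markers. The 8 dendritic cell markers summed to 1.45, 0.252 and 5.79 FPKM in the PBS libraries and 8.12, 14.7 and 19.8 in the IL-33 libraries. *Xcr1* was the highest on average, and *Itgax* and *Clec9a* were listed at 0 in all 6. *Xcr1*, a chemokine receptor of cross-presenting dendritic cells, was listed at 1.09, 0.194 and 2.21 FPKM under PBS and 5.52, 4.63 and 11.4 under IL-33 without passing the test (adjusted p = 0.0573, limma), which it passed without a variance trend (adjusted p = 0.0320) and without WT PBS replicate 3 (0.0311). The 7 listed B cell markers summed to 0, 0.139 and 5.12 FPKM in the PBS libraries and 26.9, 14.8 and 12.6 in the IL-33 libraries. Nearly all of the IL-33 sums was *Cd79b*, a chain of the B cell receptor, which was listed at 0, 0.139 and 0 FPKM under PBS and 26.8, 14.4 and 11.97 under IL-33 and was called (log2 fold change 4.08, standard error 0.88, adjusted p = 0.0218; adjusted p = 0.0975 without WT IL-33 replicate 1), while *Ms4a1* and *Pax5* were listed at 0 in all 6. These sums were highest under IL-33 along with the class II genes, and their part in that result was not tested.

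Markers of other cells were summed in the same way. The 18 macrophage and monocyte markers summed to 315, 379 and 362 FPKM in the PBS libraries and 98.8, 119.9 and 86.1 in the IL-33 libraries, nearly all of it *Ccr2*, which ILC2 precursors also carry, and to 9.20, 1.20 and 18.7 and 6.75, 10.98 and 0.815 without it. *C1qa*, *Fcgr1*, *Mertk*, *Marco* and *Ms4a7* were listed at 0 in the 6 libraries, and of 5 tested 1 was called, *Ccr2*. The mast cell and basophil markers summed to 63.9, 89.4 and 208 FPKM under PBS and 30.8, 34.2 and 21.9 under IL-33, and without *Cpa3*, which led in every library but WT PBS replicate 3, to 0.679, 0.878 and 135 and 0.868, 5.21 and 4.11, with overlap, while *Mcpt8*, *Mcpt4*, *Cma1*, *Tpsb2* and *Ms4a2* were at 0. *Cpa3*, a mast cell protease, was at 63.2, 88.6 and 73.3 FPKM under PBS and 29.9, 29.003 and 17.8 under IL-33 (log2 fold change −1.54, standard error 0.37, adjusted p = 0.0355; adjusted p = 0.151 without WT IL-33 replicate 3). The T cell markers summed to 451, 676 and 433 FPKM under PBS and 415, 389 and 461 under IL-33, with *Cd3g* the highest on average. Without *Cd3g* they summed to 261, 196 and 173 and 111, 122 and 149.8, each IL-33 library lower than each PBS library. *Cd4* was listed at 0 and *Cd3e* at 0, 3.36 and 7.63 FPKM under PBS and 3.15, 0.271 and 4.58 under IL-33. None of the 6 T cell markers tested by limma was called. Red blood cell markers summed to 16.1, 45.4 and 24.4 FPKM under PBS and 4.50, 9.76 and 5.51 under IL-33, with *Alas2* at 0. *Hba-a1* was the highest on average, though not in WT IL-33 replicate 3. Epithelial markers summed to 38.1, 35.2 and 37.5 FPKM under PBS and 22.6, 26.03 and 17.3 under IL-33, with *Epcam* the highest on average. Neither list held a called gene, and the lower IL-33 sums of both rest on *Hba-a1* and *Epcam*. Without *Hba-a1* the red cell sums were 1.98, 0.336 and 0.719 under PBS and 0.0346, 5.01 and 5.24 under IL-33, and without *Epcam* the epithelial sums were 0, 1.40 and 21.2 and 18.8, 21.4 and 8.63, both with overlap. The sort in the methods kept CD45+ Thy1.2+ ST2+ cells without lineage markers, among them CD3ε, F4/80 and TER-119 of T cells, macrophages and red cells, and what part any of these cells had in the falls above was not tested. NK cell, neutrophil, eosinophil, endothelial and fibroblast markers reached at most 31.5 FPKM as a sum in any library, that of fibroblast markers in WT PBS replicate 3.

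Among genes of cell division, mitosis genes held most of the calls, many of them from values at or near 0 under PBS. Of 31 mitosis genes tested, 15 rose and 0 fell, 30 had a positive log2 fold change and the median was 1.90. Counts were lower in other settings: 5 rose among genes above 0 in at least 2 libraries of each group, 7 in the 6 WT libraries with treatment weights or without WT IL-33 replicate 3, 8 with library weights and 9 with quantile normalization, in the 6 WT libraries alone or without WT IL-33 replicate 1 or 2, while the median was 0.70 with a pseudocount of 5 and 4.002 with 0.1. *Ube2c*, the E2 enzyme of the anaphase-promoting complex, which overlaps *Tnnc2* on the other strand, was listed at 0, 0.190 and 0 FPKM under PBS and 23.3, 29.05 and 22.5 under IL-33 (adjusted p = 2.98e-04). *Cdc20*, an activator of that complex that overlaps *Elovl1* on the other strand, was listed at 0 in each PBS library and at 18.1, 10.2 and 8.14 FPKM under IL-33 (adjusted p = 0.00109). *Ccnb1*, the mitotic cyclin B1, was listed at 0 in each PBS library and at 9.58, 7.01 and 7.54 FPKM under IL-33 (adjusted p = 0.00102). All IL-33 libraries thus listed these transcripts at modest levels. *Birc5*, which encodes the chromosomal passenger protein survivin, was listed at 0.258, 0 and 0.0859 FPKM under PBS and 18.2, 17.9 and 23.5 under IL-33 (adjusted p = 0.00759). *Mki67*, the proliferation marker Ki67, was listed at 0, 0.0279 and 0 FPKM under PBS and 2.54, 3.05 and 3.02 under IL-33 (adjusted p = 0.0102). The call of *Mki67* ended with quantile normalization (adjusted p = 0.151), library weights (0.0622) or treatment weights (0.0567). It also ended in the 6 WT libraries alone (0.0504) and in these with treatment weights (0.111). *Prc1*, which bundles spindle microtubules and overlaps *Rccd1* on the other strand, was at 0.181, 0.151 and 2.25 FPKM under PBS and 11.4, 18.8 and 14.99 under IL-33 (adjusted p = 0.0109; adjusted p = 0.0567 without WT IL-33 replicate 2). In these too every IL-33 value was above every PBS value. *Top2a*, a topoisomerase of dividing cells, was listed at 2.01, 0 and 0 FPKM under PBS and 15.8, 14.8 and 8.10 under IL-33 (adjusted p = 0.0339; adjusted p = 0.129 without WT IL-33 replicate 1). *Cdk1*, the mitotic kinase, was listed at 0, 5.03 and 0 FPKM under PBS and 5.86, 1.42 and 5.81 under IL-33, with overlap (adjusted p = 0.334; called without WT PBS replicate 2, adjusted p = 0.0444). The listing at 0 bears directly on this group: 18 of the 31 were at 0 in at least 2 PBS libraries, and among the 13 above 0 in at least 2 libraries of each group 5 rose. Replication genes gave 5 rises and 0 falls among 32, with a median of 0.96, or 0.60 with a pseudocount of 5 and 1.63 with 0.1, though 2 rose without WT IL-33 replicate 1 or 3 and 3 without WT IL-33 replicate 2. *Gins2*, a subunit of the replicative helicase complex that overlaps *Gse1* on the other strand, was listed at 0, 0.497 and 0 FPKM under PBS and 8.89, 12.6 and 14.1 under IL-33 (adjusted p = 0.00331). *Gins1*, its partner in the complex, was listed at 0 in each PBS library and at 10.5, 3.54 and 13.9 FPKM under IL-33 (adjusted p = 0.0190; adjusted p = 0.0848 without WT IL-33 replicate 3). *Ccne1*, the cyclin E1 that starts replication, was listed at 0 in each PBS library and at 4.82, 2.61 and 7.90 FPKM under IL-33 (adjusted p = 0.00563). *Uhrf1*, which keeps DNA methylation in place after replication, was listed at 0.362, 0 and 0 FPKM under PBS and 10.2, 3.80 and 5.35 under IL-33 (adjusted p = 0.0367; adjusted p = 0.143 without WT IL-33 replicate 1). No PBS library reached the IL-33 values of these genes. *Mcm6*, a helicase subunit measured in all libraries, was at 27.6, 27.8 and 16.1 FPKM under PBS and 63.7, 52.97 and 65.8 under IL-33 (log2 fold change 1.35, standard error 0.32, adjusted p = 0.0314), a call lost without WT IL-33 replicate 3 (adjusted p = 0.122). The clamp *Pcna* was at 100.1, 98.3 and 104 FPKM under PBS and 97.8, 84.1 and 142 under IL-33, with overlap (adjusted p = 0.943). Under that stricter filter 1 of 26 replication genes rose.

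The division genes were also compared in promoter sequence, taken from RefSeq (GRCm38.p6) as 300 bases around the start of each gene, which 8395 of the genes tested had. The element TTTGAA, the core of the cell cycle homology region that marks mitotic promoters, searched on both strands, stood in 20 of 25 mitosis promoters (80.000%) and in 13.97% of all promoters. The E2F-like element TTTCGCGC stood in 6 of 25 replication promoters (24.000%) and in 0.810% of all. The related TTCCCGCC stood in 6 of 25 replication promoters and 0 of 25 mitosis promoters, against 4.86% of all. A match is a description of letters and not a site. The AP-1 element TGACTCA stood in 0 of 17 promoters of immediate early genes, in 7.25% of promoters of the genes that fell, in 7.86% of those of the genes that rose and in 4.34% of all. The NF-kB-like element GGACTTTCC stood in 3 of 14 promoters of the NF-kB list and in 0.560% of all. An element did not go with a call in each gene. The risen *Birc5* and *Ccnb1* had no TTTGAA and the risen *Ccne1* no TTTCGCGC, which *Lig1*, *Mcm5*, *Mcm7* and *Rfc3* had without being called. The promoters of *Ube2c*, at chr2:164769679-164769978 (plus strand), *Cdc20*, at chr4:118437294-118437593 (minus strand), and *Mcm6*, at chr1:128359656-128359955 (minus strand), are shown because these genes rose and hold an element. They are written 5′ to 3′ with the element, or its reverse complement, in capitals (TTTGAA in *Ube2c* and *Cdc20*, TTTCGCGC in *Mcm6*).
Ube2c: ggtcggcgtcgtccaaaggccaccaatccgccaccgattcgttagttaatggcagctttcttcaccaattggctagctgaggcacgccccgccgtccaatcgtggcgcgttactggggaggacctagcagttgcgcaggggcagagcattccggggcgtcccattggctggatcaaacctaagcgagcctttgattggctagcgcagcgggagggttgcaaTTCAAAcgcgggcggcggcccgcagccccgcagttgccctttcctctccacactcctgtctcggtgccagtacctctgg
Cdc20: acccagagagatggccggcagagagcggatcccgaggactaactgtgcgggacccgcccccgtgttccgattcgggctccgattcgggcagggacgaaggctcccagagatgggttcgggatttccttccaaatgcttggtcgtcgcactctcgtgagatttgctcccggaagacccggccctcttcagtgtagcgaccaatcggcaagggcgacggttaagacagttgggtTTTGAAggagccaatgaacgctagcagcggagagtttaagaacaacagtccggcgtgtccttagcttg
Mcm6: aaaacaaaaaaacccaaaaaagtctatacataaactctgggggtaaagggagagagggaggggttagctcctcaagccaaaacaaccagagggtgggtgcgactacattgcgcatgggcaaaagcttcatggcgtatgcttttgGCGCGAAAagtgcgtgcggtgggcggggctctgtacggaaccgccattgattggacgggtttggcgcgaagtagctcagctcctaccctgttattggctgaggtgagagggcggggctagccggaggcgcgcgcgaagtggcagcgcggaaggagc

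Of 19 transcription factors of the ILC2 lineage tested, 1 rose and 0 fell. Beside 2.89% risen and 1.7% fallen of all genes tested, this count is no result about these factors. The risen member was *Tcf7*, a factor of early ILC development, at 18.3, 10.2 and 21.3 FPKM under PBS and 48.7, 57.6 and 56.8 under IL-33 (log2 fold change 1.71, standard error 0.32, adjusted p = 0.0111; adjusted p = 0.0522 without WT IL-33 replicate 3). *Rora*, a nuclear receptor that ILC2s require, was at 292, 141 and 209 FPKM under PBS and 131, 184 and 191 under IL-33, with overlap (adjusted p = 0.610). *Id2* was at 2113, 2572 and 2200.2 FPKM under PBS and 2346, 2753 and 3136 under IL-33, also with overlap (adjusted p = 0.525). Among 19 factors of effector and regulatory fates, 2 rose and 1 fell, though 0 rose without WT IL-33 replicate 1 or 3 and 1 without WT IL-33 replicate 2. *Batf*, an AP-1 family factor of activated lymphocytes, was at 1.19, 35.8 and 33.1 FPKM under PBS and 165, 259 and 213 under IL-33 (log2 fold change 3.91, standard error 0.83, adjusted p = 0.0201). *Tox2*, an HMG box factor, was listed at 0, 0 and 1.32 FPKM under PBS and 13.3, 6.13 and 14.99 under IL-33 (adjusted p = 0.0112). The fallen member was *Nr4a1*. *Batf* thus rose while *Fos*, *Jun* and *Junb* fell, and its call was lost without WT IL-33 replicate 2 (adjusted p = 0.0801), as was that of *Tox2* without WT IL-33 replicate 3 (adjusted p = 0.0608). None of 7 tested genes of ILC1 and ILC3 was called by limma, though 1 rose with library weights, with treatment weights, in the 6 WT libraries alone or in the 6 WT libraries with treatment weights. STAT and SOCS genes gave 1 fall among 21, though 1 rose without WT PBS replicate 2, and 0 fell without WT IL-33 replicate 1, 2 or 3. Beside 2.89% risen and 1.7% fallen of all genes tested, this count too is no result about the list. The counts of effector and regulatory fate factors stand beside the same shares. The fallen gene *Cish*, a feedback inhibitor of STAT5 signals, was at 743, 541 and 783 FPKM under PBS and 405, 367 and 418 under IL-33 (log2 fold change −0.78, standard error 0.17, adjusted p = 0.0233; adjusted p = 0.0963 without WT IL-33 replicate 2).

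Gimap GTPases, regulators of lymphocyte survival encoded side by side on chromosome 6, gave 3 falls and 0 rises among 8 tested, with a median log2 fold change of −0.90, though 5 fell without WT PBS replicate 2. *Gimap3* (chromosome 6, 48764464 to 48770851) was at 375, 306 and 419 FPKM under PBS and 81.1, 79.3 and 73.4 under IL-33 (log2 fold change −2.21, standard error 0.15, adjusted p = 2.25e-05). *Gimap6* was at 255, 208 and 191 FPKM under PBS and 102, 102 and 85.1 under IL-33 (log2 fold change −1.16, standard error 0.17, adjusted p = 0.00197). *Gimap8* was at 31.8, 51.2 and 40.5 FPKM under PBS and 11.2, 6.93 and 9.02 under IL-33 (log2 fold change −2.06, standard error 0.36, adjusted p = 0.00781). All IL-33 libraries were below all PBS libraries in these genes. The nearby membrane protein genes *Tmem176a* (chromosome 6, 48840919 to 48847071) and *Tmem176b* (chromosome 6, 48833818 to 48841496) were among the genes with the smallest adjusted p. *Tmem176a* was at 739.8, 602 and 705 FPKM under PBS and 182, 182 and 188 under IL-33 (log2 fold change −1.88, standard error 0.14, adjusted p = 4.81e-05). *Tmem176b* was at 1008, 930.3 and 1076 FPKM under PBS and 352, 317 and 326 under IL-33 (log2 fold change −1.60, standard error 0.14, adjusted p = 8.00e-05). Their exons overlap on opposite strands, and the sources differ on whether the library kit kept strand, so reads of this pair may have been shared.

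Other genes with large falls had diverse roles. *Cd24a* (chromosome 10, 43578284 to 43584265), a glycosylated surface protein, was at 85.05, 94.5 and 63.9 FPKM under PBS and listed at 0, 1.38 and 0.760 under IL-33 (log2 fold change −5.65, standard error 0.43, adjusted p = 4.81e-05). *Bmp2* (chromosome 2, 133552159 to 133562885), a ligand of the TGF-beta superfamily, was at 64.7, 58.99 and 63.1 FPKM under PBS and 4.16, 3.57 and 3.24 under IL-33 (log2 fold change −3.77, standard error 0.33, adjusted p = 8.29e-05). *1810011H11Rik*, a gene without an assigned function, was at 41.6, 35.5 and 57.5 FPKM under PBS and listed at 2.15, 1.32 and 0 under IL-33 (log2 fold change −4.54, standard error 0.47, adjusted p = 2.98e-04). In these the IL-33 values were close to 0 and the PBS values clearly above it. *Plaur*, the urokinase receptor, was at 292, 223 and 219 FPKM under PBS and 22.3, 61.9 and 40.02 under IL-33 (log2 fold change −2.64, standard error 0.41, adjusted p = 0.00345). *Lpcat2*, an enzyme of platelet-activating factor synthesis, was at 335, 178 and 296 FPKM under PBS and 38.2, 54.8 and 29.98 under IL-33 (log2 fold change −2.68, standard error 0.31, adjusted p = 6.59e-04). *Igsf5*, an immunoglobulin superfamily member, was at 133, 87.1 and 129.5 FPKM under PBS and 8.15, 32.6 and 21.6 under IL-33 (log2 fold change −2.60, standard error 0.39, adjusted p = 0.00315). The groups were well apart in these genes too.

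Further large falls ended at low values. *Cd9*, a tetraspanin, was at 67.1, 16.6 and 30.3 FPKM under PBS and 0.357, 0 and 0.124 under IL-33 (log2 fold change −4.86, standard error 1.22, adjusted p = 0.0440; adjusted p = 0.139 without WT IL-33 replicate 3). *Serpinb2*, a protease inhibitor that overlaps *Serpinb10*, was at 14.6, 26.1 and 36.2 FPKM under PBS and 0, 0.0623 and 0.346 under IL-33 (log2 fold change −4.47, standard error 1.03, adjusted p = 0.0286; adjusted p = 0.106 without WT IL-33 replicate 1). *Tuba8*, an alpha tubulin, was at 22.6, 45.6 and 25.3 FPKM under PBS and 1.15, 5.90 and 0 under IL-33 (log2 fold change −3.64, standard error 0.68, adjusted p = 0.0102). These IL-33 values were all below the PBS values. The call of *Tuba8* ended with library weights (adjusted p = 0.0881) and treatment weights (0.0640). It also ended in the 6 WT libraries alone (0.0519) and in these with treatment weights (0.146). *Cyp2d22*, a cytochrome P450, was at 23.3, 15.4 and 7.54 FPKM under PBS and 0, 1.04 and 0 under IL-33 (log2 fold change −3.57, standard error 0.77, adjusted p = 0.0209; adjusted p = 0.0943 without WT IL-33 replicate 3). *Kctd12*, an auxiliary subunit of GABA receptors, was at 34.04, 27.6 and 23.4 FPKM under PBS and 2.57, 2.13 and 1.25 under IL-33 (log2 fold change −3.31, standard error 0.51, adjusted p = 0.00331). *Pard3*, a polarity protein, was at 26.7, 38.01 and 36.9 FPKM under PBS and 4.15, 5.39 and 1.08 under IL-33 (log2 fold change −3.07, standard error 0.49, adjusted p = 0.00455). The calls of *Tuba8*, *Kctd12* and *Pard3* held with any of the 6 WT libraries left out. That of *Pard3* ended in the 6 WT libraries with treatment weights (adjusted p = 0.0788). *Maob*, a monoamine oxidase, was at 10.5, 15.1 and 7.63 FPKM under PBS and listed at 0 in each IL-33 library (adjusted p = 0.0173; adjusted p = 0.0688 without WT IL-33 replicate 1). *Flrt2*, an adhesion protein, was at 7.01, 6.86 and 9.48 FPKM under PBS and also listed at 0 in each IL-33 library (adjusted p = 0.0269; adjusted p = 0.0976 without WT IL-33 replicate 3).

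Genes with the smallest adjusted p among those that rose included 2 not yet named in a group. *S100a11* (chromosome 3, 93520488 to 93526287), a calcium-binding protein, was at 1114, 1205 and 1114 FPKM under PBS and 3062, 2754 and 2776 under IL-33 (log2 fold change 1.32, standard error 0.11, adjusted p = 8.00e-05). *Dpp7* (chromosome 2, 25352276 to 25356359), a dipeptidyl peptidase of lymphocytes, was listed at 0 in each PBS library and at 28.4, 22.7 and 15.96 FPKM under IL-33 (adjusted p = 1.85e-04). *S100a11* was high in all 6 libraries with a narrow spread, whereas *Dpp7* was listed above 0 under IL-33 alone among these 6. *Ifi27l2a*, an interferon-inducible gene, was listed at 0, 21.5 and 5.92 FPKM under PBS and 225, 145 and 289.9 under IL-33 (log2 fold change 5.31, standard error 1.28, adjusted p = 0.0374). *Plac8*, a cysteine-rich protein of lymphoid and myeloid cells, was at 19.997, 46.5 and 30.8 FPKM under PBS and 342, 342 and 398 under IL-33 (log2 fold change 3.51, standard error 0.87, adjusted p = 0.0416). *Cib2*, a calcium- and integrin-binding protein, was listed at 0 in each PBS library and at 34.3, 17.05 and 34.95 FPKM under IL-33 (adjusted p = 0.00783). *Cib2* overlaps *Sh2d7* on the opposite strand, and reads of the pair may have been shared. *AA467197*, a gene of unsettled role, was listed at 37.5, 0 and 0 FPKM under PBS and 103, 77.7 and 81.8 under IL-33 (log2 fold change 4.70, standard error 1.05, adjusted p = 0.0247). *Trappc1*, a vesicle tethering subunit, was at 15.7, 0.256 and 23.1 FPKM under PBS and 83.3, 91.9 and 104 under IL-33 (log2 fold change 3.55, standard error 0.83, adjusted p = 0.0317). *Tmsb15b1*, a thymosin beta gene, was listed at 0, 0 and 0 FPKM under PBS and 20.3, 31.1 and 30.4 under IL-33 (adjusted p = 0.0462), and is uncertain because it overlaps its near copies *Tmsb15l* and *Tmsb15b2*. Groups were apart in these genes, but calls were lost for *Ifi27l2a* (adjusted p = 0.141 without WT IL-33 replicate 3), *Plac8* (adjusted p = 0.141 without WT IL-33 replicate 3), *AA467197* (adjusted p = 0.0975 without WT IL-33 replicate 1), *Trappc1* (adjusted p = 0.120 without WT IL-33 replicate 3) and *Tmsb15b1* (adjusted p = 0.152 without WT IL-33 replicate 3).

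Metabolic and biosynthetic groups were tested in the same way. Of 31 genes of cholesterol and fatty acid synthesis, 0 rose and 0 fell by limma, 28 had a positive log2 fold change (57.98% of all genes had), and the median was 1.23, or 0.68 with a pseudocount of 5 and 0.80 without WT PBS replicate 1. Of them, 1 rose without WT PBS replicate 3. *Sqle*, the squalene epoxidase, was listed at 0, 0.487 and 12.97 FPKM under PBS and 23.8, 18.2 and 22.3 under IL-33 (adjusted p = 0.128; called without WT PBS replicate 3, adjusted p = 0.0249). Its groups did not overlap, with the lowest IL-33 value above the highest PBS value, and it did not pass the threshold. Interferon-stimulated genes gave 2 rises and 0 falls among 25, though 0 rose without WT IL-33 replicate 1, 2 or 3, 1 without WT PBS replicate 1 and 6 without WT PBS replicate 2. Their median was 1.28, or 0.63 with a pseudocount of 5 and 2.13 with 0.1. *Bst2*, the antiviral tether tetherin, was at 66.99, 66.5 and 33.6 FPKM under PBS and 165, 159.9 and 183 under IL-33 (log2 fold change 1.65, standard error 0.36, adjusted p = 0.0233; adjusted p = 0.0968 without WT IL-33 replicate 3). *Irf9*, an interferon regulatory factor that overlaps *Rnf31*, was listed at 0, 0 and 0.387 FPKM under PBS and 24.1, 22.9 and 21.1 under IL-33 (adjusted p = 0.0158; adjusted p = 0.0676 without WT IL-33 replicate 1). Both were higher in every IL-33 library than in any PBS library. Of 22 glycolysis genes 2 rose, namely *Eno2*, an enolase at 0 in each PBS library and at 4.28, 4.32 and 2.74 FPKM under IL-33 (adjusted p = 0.00455), and *Aldoc*, an aldolase at 0 in each PBS library and at 4.12, 1.53 and 5.44 (adjusted p = 0.0173; adjusted p = 0.0648 without WT IL-33 replicate 1), though 1 rose without WT IL-33 replicate 1 or 3, and 1 fell without WT PBS replicate 2. The abundant enzyme *Ldha*, lactate dehydrogenase A, was at 2554, 2459.9 and 2298 FPKM under PBS and 2328, 2419 and 2572 under IL-33, with overlap (adjusted p = 0.996). Of 76 subunits of oxidative phosphorylation 3 rose, with a median of 0.26, though 0 rose without WT IL-33 replicate 3, 1 without WT IL-33 replicate 1 and 8 without WT PBS replicate 2. Of 46 proteasome subunits 1 rose, with a median of 0.34. *Cox5a*, a subunit of complex IV, was at 254, 302 and 169 FPKM under PBS and 513, 491 and 558 under IL-33 (log2 fold change 1.14, standard error 0.22, adjusted p = 0.0111; adjusted p = 0.0567 without WT IL-33 replicate 3). *Ndufa8*, of complex I, was at 90.3, 63.96 and 100.2 FPKM under PBS and 206, 153 and 172 under IL-33 (log2 fold change 1.07, standard error 0.24, adjusted p = 0.0246; adjusted p = 0.110 without WT IL-33 replicate 1). *Uqcrq*, of complex III, was at 335, 276 and 262 FPKM under PBS and 530.5, 435 and 532 under IL-33 (log2 fold change 0.78, standard error 0.17, adjusted p = 0.0226; adjusted p = 0.0992 without WT IL-33 replicate 3). *Psmb9*, the immunoproteasome subunit, which overlaps *Tap1* on the other strand, was at 62.2, 54.7 and 77.4 FPKM under PBS and 164, 158 and 249 under IL-33 (log2 fold change 1.52, standard error 0.32, adjusted p = 0.0203; adjusted p = 0.102 without WT IL-33 replicate 3). Each was higher in every IL-33 library, and each call ends without some library. Of 83 cytosolic ribosomal protein genes 1 rose, 6 with quantile normalization and 5 without WT PBS replicate 2. The called gene in the values as deposited was *Rps27l*, a ribosomal protein paralog that p53 induces, at 183, 163 and 146 FPKM under PBS and 370.0, 314 and 375 under IL-33 (log2 fold change 1.10, standard error 0.16, adjusted p = 0.00209). Ribosome biogenesis gave 1 rise and 1 fall among 36. *Npm1*, a nucleolar chaperone, was at 579.6, 415 and 453 FPKM under PBS and 760.0, 742 and 676 under IL-33 (log2 fold change 0.60, standard error 0.14, adjusted p = 0.0278; adjusted p = 0.111 without WT IL-33 replicate 1). *Ppan*, an assembly factor of the large subunit, was at 37.98, 42.8 and 49.1 FPKM under PBS and 15.6, 14.96 and 13.4 under IL-33 (log2 fold change −1.49, standard error 0.27, adjusted p = 0.00964). The unfolded protein response and secretory pathway gave 1 rise and 1 fall among 33. *Spcs2*, a signal peptidase subunit, was at 129, 176 and 149.8 FPKM under PBS and 235, 261 and 253 under IL-33 (log2 fold change 0.73, standard error 0.16, adjusted p = 0.0225; adjusted p = 0.0864 without WT IL-33 replicate 2). *Hspa5*, the chaperone BiP of the endoplasmic reticulum, was at 1369, 955 and 864 FPKM under PBS and 499, 612 and 623 under IL-33 (log2 fold change −0.86, standard error 0.18, adjusted p = 0.0173; adjusted p = 0.0867 without WT IL-33 replicate 1). None of 16 heat shock chaperones was called (limma). Beside 2.89% risen and 1.7% fallen of all genes tested, the counts of interferon-stimulated and glycolysis genes are no result about these groups. The same holds for oxidative phosphorylation, proteasome, ribosomal protein, ribosome biogenesis and secretory genes.

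Amino acid and polyamine genes gave 2 rises and 1 fall among 23, beside 2.89% risen and 1.7% fallen of all genes tested. In this list 1 rose without WT IL-33 replicate 1, 2 or 3, and 1 rose and 2 fell without WT PBS replicate 2. *Slc7a8*, a transporter of large neutral amino acids, was at 134, 127 and 151 FPKM under PBS and 35.4, 39.5 and 23.9 under IL-33 (log2 fold change −2.06, standard error 0.28, adjusted p = 0.00150). *Mthfd2*, a mitochondrial folate enzyme, was listed at 2.84, 0 and 3.40 FPKM under PBS and 21.5, 18.9 and 31.04 under IL-33 (log2 fold change 3.24, standard error 0.73, adjusted p = 0.0252; adjusted p = 0.118 without WT IL-33 replicate 3). Among BCL2 family genes, 2 of 13 rose and 1 fell. In this list 0 rose without WT IL-33 replicate 1, 2 or 3, without the abundance filter, without a variance trend or with a replicate block. Without WT PBS replicate 2, 1 rose and 2 fell. *Mcl1*, an anti-death member, was at 184, 144 and 126 FPKM under PBS and 56.8, 63.4 and 59.8 under IL-33 (log2 fold change −1.30, standard error 0.21, adjusted p = 0.00434). *Bax*, a pro-death member, was at 43.3, 87.2 and 122 FPKM under PBS and 186, 195 and 182 under IL-33 (log2 fold change 1.27, standard error 0.31, adjusted p = 0.0379; adjusted p = 0.122 without WT IL-33 replicate 2). *Pmaip1*, which encodes the pro-death protein NOXA, was at 10.95, 18.7 and 18.4 FPKM under PBS and 64.2, 62.5 and 70.2 under IL-33 (log2 fold change 2.005, standard error 0.49, adjusted p = 0.0391; adjusted p = 0.138 without WT IL-33 replicate 3). *Mcl1* was thus lower, and *Bax* and *Pmaip1* higher, in every IL-33 library. Of 10 granzyme and cytotoxic granule genes 1 rose, *Ctsw*, a cathepsin of cytotoxic lymphocytes that overlaps *Fibp* on the other strand, at 82.7, 181 and 82.1 FPKM under PBS and 594, 573 and 602 under IL-33 (log2 fold change 2.45, standard error 0.47, adjusted p = 0.0111; adjusted p = 0.0518 without WT IL-33 replicate 3). Of 11 semaphorins and their receptors 1 fell. It was *Sema4a*, a membrane-bound semaphorin of immune cells, at 188, 116 and 186 FPKM under PBS and 56.1, 53.4 and 61.3 under IL-33 (log2 fold change −1.47, standard error 0.23, adjusted p = 0.00427). Beside 2.89% risen and 1.7% fallen of all genes tested, the single calls in the granzyme and semaphorin lists are no result about these groups. The counts of the BCL2 family stand beside the same shares.

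**Figure D3:**
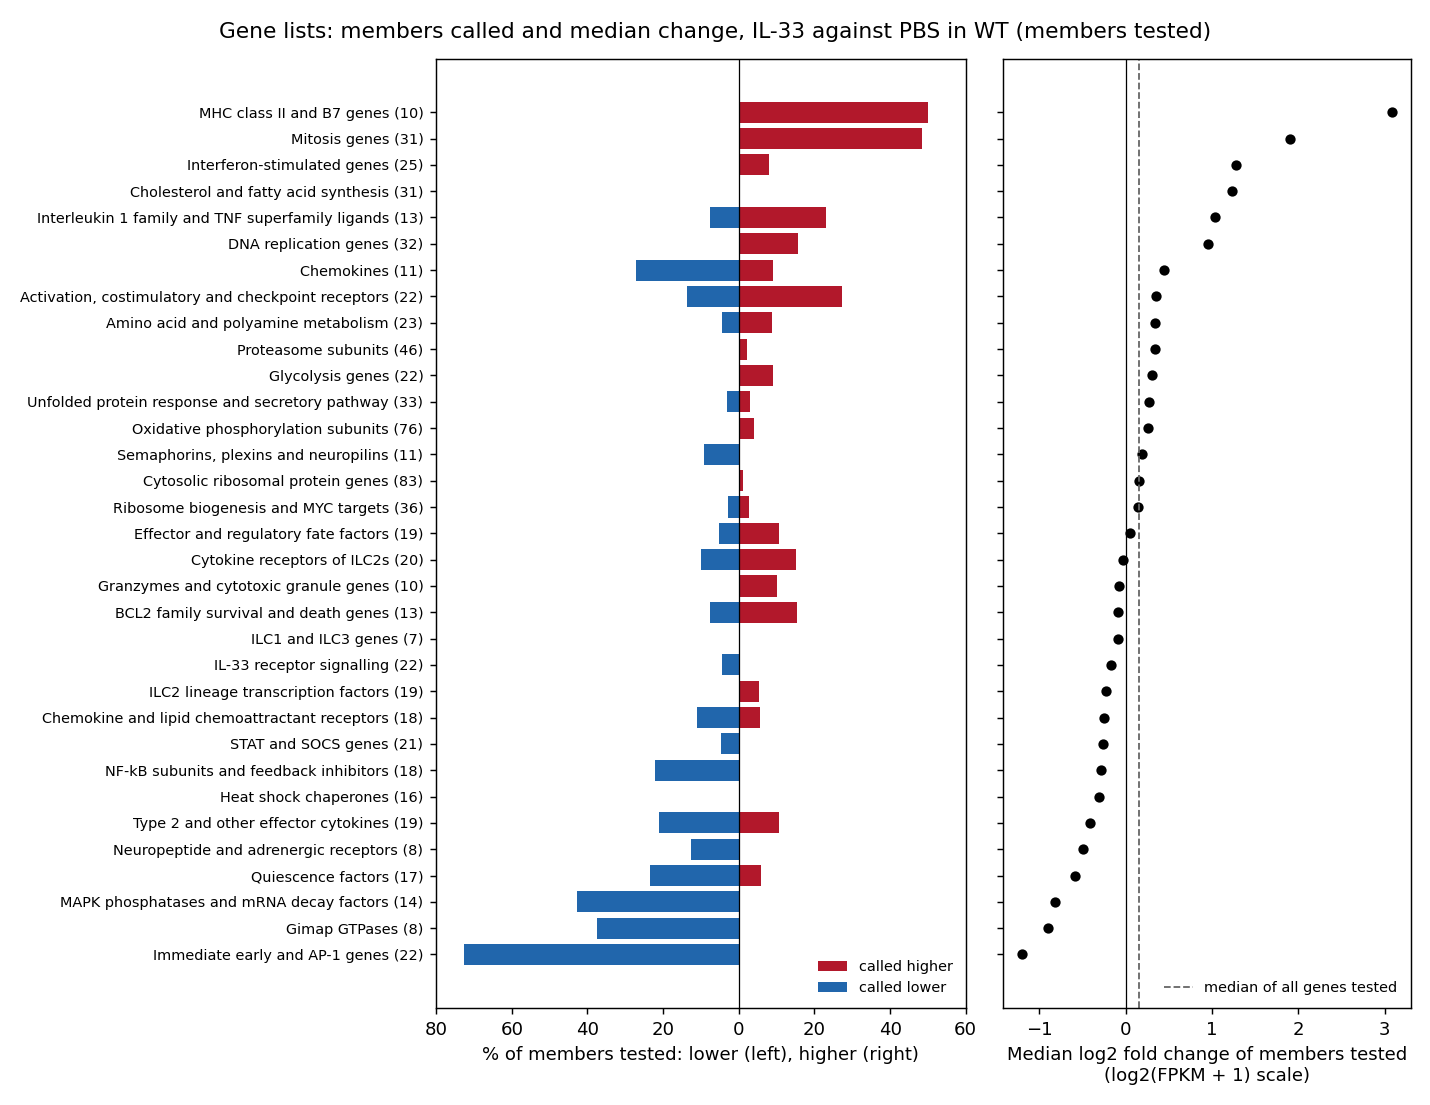
For each gene list, with the number of members tested in brackets, the left panel gives the percentage of members called lower (blue) or higher (red) after IL-33 and the right panel the median log2 fold change, with the median of all genes (0.16) as a dashed line. Of the lists shown, MHC class II and B7 genes (3.08) and mitosis genes (1.90) have the highest medians, in an order that turns with a pseudocount of 0.1 (3.66 and 4.002), and immediate early genes (−1.20) the lowest.

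The same contrast in Sema6d−/− ILC2s used other libraries, though the same model and its spread. There 317 genes were called (2.87% of those tested). In both genotypes 201 genes were called in the same direction, 39.6% of the WT calls and 63.4% of the Sema6d−/− calls. Of the 508 WT calls, 480 (94.5%) had the same direction in Sema6d−/− libraries, against 63.4% of all genes. These shares are no test of the WT calls, since called genes were picked for large changes and genes near 0 take either sign. Genes listed at 0 were not counted in Sema6d−/− libraries, and the part of a shared difference in detection was not tested. A test of the difference between the genotypes' responses called 2 genes (0.0181%), among them *Gm5547*. *Gm5547*, a predicted gene (chromosome 3, 105815540 to 105817357), was among the largest rises in WT. It was listed at 0 in each WT PBS library and at 43.8, 39.4 and 56.5 FPKM in the WT IL-33 libraries (adjusted p = 6.63e-05), but at 23.7, 18.1 and 41.5 FPKM in Sema6d−/− PBS and 15.7, 23.2 and 43.8 in Sema6d−/− IL-33 libraries. The call of a difference between genotypes ended with a pseudocount of 5 (adjusted p = 0.1001), with array weights for each treatment (0.0884), without WT IL-33 replicate 1 (0.0912) or 3 (0.0712) and without Sema6d−/− IL-33 replicate 1 (0.0741) or 2 (0.0697). The other WT genes described above did not pass the test of a difference between the genotypes.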

How the data were processed

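RNA-seq of sorted lung ILC2s was deposited as 12 files of FPKM, which the authors computed per the labels by mapping reads to mm10 with TopHat2 2.1.1 and Bowtie2 and quantifying with Cuffdiff 2.2.1; the methods of the study name other versions and another library kit. FPKM were used as deposited, plus 1, as log2. 24346 symbols were listed, and 11058 with a mean of at least 0.5 over the 6 WT libraries were tested. Depth per library is not given. Groups are genotype and treatment. limma 3.58.1 (R 4.3.3), with 4 group means, 8 residual and 3.83 prior degrees of freedom, an intensity trend and Benjamini-Hochberg adjustment, tested IL-33 against PBS in WT, and the difference of that response between genotypes; a gene is called at an adjusted p under 0.05. In simulated data with 200 genes changed in WT IL-33 libraries, 23 were recovered at a log2 change of 1, 124 at 2 and 182 at 4. False calls beside them numbered 4, 15 and 24, and 4 were made when no gene was changed. Most changes of 1 log2 unit were thus missed. Members and gene lists were chosen with earlier results of these data known. Genes named are the 12 largest called changes per direction, the same at 50 FPKM or more, the 5 smallest adjusted p per direction, called list members by size and members of known role. Some genes that met these rules are not reported here. 19 alternatives were planned and 1 added, covering pseudocount, filter, scaling, variance model, weights, block and left-out WT libraries; for the test between genotypes each Sema6d−/− library was also left out. GENCODE vM21 (GRCm38) placed 10641 tested symbols (96.2%), and RefSeq (NCBI, GRCm38.p6) promoters matched 8395. Python 3.11.15 with pandas 2.3.3, numpy 2.4.6 and scipy 1.17.1 made the tables.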

Additional observations from a re-analysis of the deposited data

Results flagged for a closer look

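The response of *Gm5547* to IL-33 differed between genotypes by a direct test of the difference. Its log2 fold change in Sema6d−/− minus that in WT was −5.61 (adjusted p = 0.0135, limma), a value that depends on the pseudocount because a group is listed at 0: it was −8.90 with 0.1 and −3.39 with 5. The call ended with a pseudocount of 5 (adjusted p = 0.1001), with array weights for each treatment (0.0884), without WT IL-33 replicate 1 (0.0912) or 3 (0.0712) and without Sema6d−/− IL-33 replicate 1 (0.0741) or 2 (0.0697). It was listed at 0 in each WT PBS library and at 43.8, 39.4 and 56.5 FPKM under IL-33, and at 23.7, 18.1 and 41.5 in Sema6d−/− PBS and 15.7, 23.2 and 43.8 in Sema6d−/− IL-33 libraries.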

How the results depend on the processing

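Of 134 called genes named in the text, 50 kept their call in each of the 20 alternatives that gave them a value. None turned its direction, and 455 of 2646 pairs of a called gene and an alternative lost the call. Of 23 named genes that were not called, 15 of 459 pairs gained one and 6 genes, all with overlap between the groups, changed sign somewhere. The log2 fold change of *Il7r* was −0.00899 with quantile normalization, and that of *Cd3e* was 0.36 with a pseudocount of 0.1. With each WT library left out in turn (leave-one-out) it ran from −0.0769 to 0.12 for *Il7r*, from −0.0578 to 0.25 for *Nfkb1*, from −0.27 to 0.40 for *Cd3g*, from −0.99 to 0.56 for *Cd3e*, from −0.15 to 0.23 for *Pcna* and from −0.0402 to 0.0360 for *Ldha*; the cause was not tested.

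Counts of changed genes moved by more than 1.5 times in these settings. Genes above 0 in at least 2 libraries of each WT group gave 148 higher and 309 in total, since fewer genes are tested and the low genes at 0 under PBS are left out. The 6 WT libraries alone gave 203 higher and 333 in total, with fewer degrees of freedom. Array weights for each treatment gave 125 lower; the cause was not tested. The last 2 settings together, chosen after the data were seen, gave 134 higher, 81 lower and 215 in total. Leave-one-out counts ran from 140 to 466 higher, from 89 to 226 lower and from 229 to 670 in total. Leaving out a PBS library raised them in 2 of 3 cases and leaving out an IL-33 library lowered them in each; a group of 2 is assumed to vary like the others, and the cause was not tested.

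The test between genotypes, with 2 genes called, gave 5 with a pseudocount of 0.1, 0 with a pseudocount of 5, 7 without a variance trend and 0 with array weights for each treatment; leave-one-out counts over all 12 libraries, those of Sema6d−/− added after the data were seen, ran from 0 to 25. The cause was not tested, and the 6 WT libraries alone cannot give this test.

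Replicate numbers do not pair the libraries: with gene and group means removed, libraries of the same number in the PBS and IL-33 groups correlated at −0.0186, 0.0268 and 0.00211. A replicate block gave 247 higher and 147 lower, and 1 gene in the test between genotypes.

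Limits: 3 libraries per group, no read totals, and no counts, so how far chance of sampling made the values listed at 0 is unknown. Sorting purity, cell number and library amount were not in the files. Which mouse each library came from, its sex and date, and the batch are unstated, and age is given in the methods as a range over all mice, so a batch that matched treatment would look like a response. Sequence mapped to near copies or to overlapping genes cannot be separated. A gene missing the threshold is not shown to be unchanged.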
